A study of Homo sapiens with 12 samples.

Results

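Mitosis and spindle genes encode the machinery that condenses chromosomes, attaches them to microtubules, holds back their separation until all are attached and then divides the cell. Most of them are transcribed late in the cell cycle, after the replication genes of G1 and S phase. Cyclin D1 binds CDK4 and CDK6 early in G1, and the active kinase phosphorylates the retinoblastoma protein and frees the E2F factors that transcribe the replication genes. The mitotic genes come later under the B-MYB and FOXM1 factors, which act with the MuvB complex at promoters that carry a short element named CHR. The present list held 53 of these genes, chosen by symbol in the probe annotation. All 53 were among the 18665 genes to which a probe with 1 symbol belonged, and each gene was read from its brightest probe.

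RNA came from MDA-MB-231, an established ER-negative and mesenchymal breast cancer line, and was hybridised to 12 Illumina BeadChip arrays. Per the labels there were 4 groups of 3 arrays each: cells titled Control, cells given a non-targeting pool, cells given cyclin D1 siRNA and cells given CDK4/6 siRNA, the last aimed at both kinases. The Control cells are read here as given no siRNA and are called that below. The general protocol of the study gave 40 nM of oligonucleotide, and the legends of its array panels gave 20 h after transfection. The labels do not say whether replicates were separate cultures, while the legends of the study's array panels speak of independent experiments. P-values measure the spread between these arrays. Each array is named below by its label and replicate number. The deposited values were linear intensities with a median of 44.1, already brought by the authors to nearly the same distribution on every array. The level above background was set at 44.4, and the number of arrays limits the precision. Of the line's markers, VIM, CD44, AXL and MSN were bright on every array (VIM 15295 to 16971), whereas SPARC was above background on 0 arrays. Of the luminal markers, PGR and FOXA1 were above background on 0 arrays, ESR1 on 2 and CDH1 on 8, and GATA3 was dim (80.2 to 99.6), but KRT8 (933 to 1294) and ERBB3 (2875 to 3933) were bright, against their place in that list as low or absent. Of the leukocyte markers PTPRC was above background on 0 arrays, CD3E on 1 and LYZ on 11 (at most 51.8). Of the endothelial markers VWF was above it on 0, CDH5 on 1 and PECAM1 on 12 (87.8 to 106.3), and of the fibroblast markers COL3A1 on 0, DCN on 2, and COL1A1 (54.6 to 68.2) and LUM (47.0 at its lowest) on 12.

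The siRNA targets did not follow the labels. CDK4 was low on non-targeting siRNA 2, on no siRNA 3 and on CDK4/6 siRNA 2 (275, 301 and 409) and between 2167 and 2771 on the other 9. CDK6 was low on the same 3 arrays (276, 283 and 333.5, against 1297 to 1752 elsewhere), where CCND1, the gene of cyclin D1, was high (14187 to 15393). CCND1 was low on 6 arrays. From its lowest level up these were no siRNA 2, non-targeting siRNA 1 and cyclin D1 siRNA 2 (2702.5, 2951 and 3513) and then non-targeting siRNA 3, CDK4/6 siRNA 3 and cyclin D1 siRNA 3 (4311, 4361 and 5100.1). On no siRNA 1, on cyclin D1 siRNA 1 and on CDK4/6 siRNA 1 both were on their higher side (CCND1 13659 to 13952, CDK4 2561 to 2771). These sets of arrays are called CDK4-lower, CCND1-lower and both-higher below, and lists of 3 values keep the order of arrays given here. In the order of the deposited columns the 12 arrays run in 3s with like target levels, while the labels change from column to column. Whether labels and columns were mismatched was not tested, and every comparison of labels below holds only as far as the labels do. Labels were kept, groups are called arrays labelled with a treatment, and arrays set apart by a measured level get no mean and no test. Because CCND1 and CDK4 levels fall into separate clusters of arrays, no pooled correlation with them was computed.

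Of the 53 genes, 52 passed the filter on low values (above background on at least 3 arrays) and 51 were above background on all 12. HMMR, a hyaluronan receptor that also binds the spindle, was above background on 0 arrays (34.9 to 44.1). AURKA, the Aurora A kinase of the spindle poles, was above it on 4 (37.9 to 47.4), and its second probe on 2. CDCA8, the borealin subunit of the chromosomal passenger complex, lay at 44.6 to 49.0, MYBL2, which encodes B-MYB, at 44.8 to 57.8, and TOP2A, which untangles sister chromatids, at 57.2 to 68.5. For these genes the probes say little, since background was not taken off the deposited intensities and a fold between arrays is then an underestimate.

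The 51 genes above background on every array had a wider median range than all such genes, though some of them were narrower. Their highest over lowest deposited intensity had a median of 1.507-fold (range 1.099 to 2.273), and 26 of them (51%) exceeded 1.5-fold, against a median of 1.307-fold and 15.8% over all 10980 such genes. The genes were not matched for intensity, and the background left in understates the range of dim ones. The 10 widest were CDCA3 (2.27-fold), MAD2L1 (2.00), PRC1 (1.99), KIF11 (1.98), MELK (1.80), NCAPG (1.69), ANLN (1.68), MKI67 (1.67), SPC25 (1.66) and ASPM (1.66). The narrowest 5 were CDCA8 (1.099), CKS2 (1.18), BUB3 (1.18), PTTG1 (1.18) and TOP2A (1.20). CKS2, a subunit of the mitotic CDK, BUB3, a checkpoint protein, and PTTG1, the securin that holds separase inactive, were all bright (CKS2 4394 to 5164, BUB3 7979 to 9385, PTTG1 9002 to 10612), far from the background level. A list of 66 further mitosis genes, of which 63 were above background on every array, had a median range of 1.474-fold, and 33 replication genes had 1.911-fold.

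**Figure D1:**
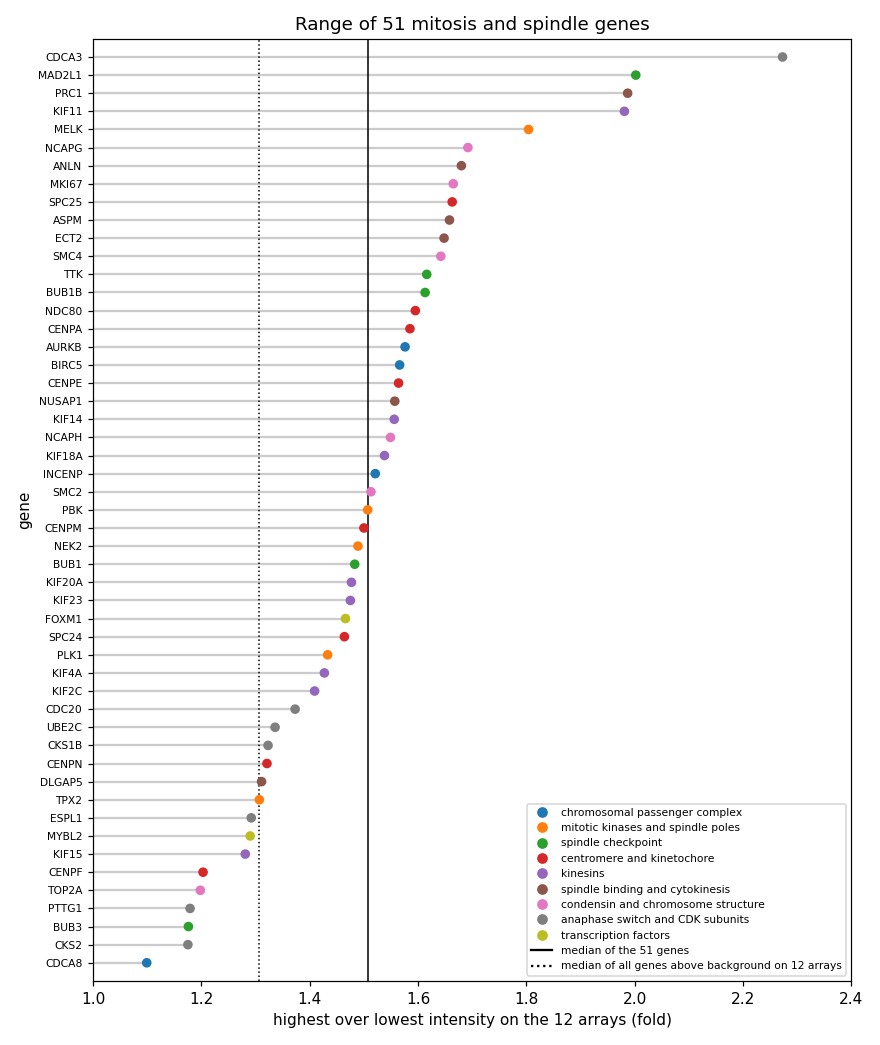
Highest over lowest deposited intensity on the 12 arrays (x axis, fold, no unit) for each of the 51 mitosis and spindle genes above background on every array (y axis), coloured by role. CDCA3 was widest at 2.27-fold and CDCA8 narrowest at 1.099-fold, with the median of the genes (solid line) at 1.507 and that of all genes (dotted line) at 1.307.

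Along CDK4, the 3 CDK4-lower arrays lay all below or all above the other 9 in 0 of the 52 genes. Over all 13551 genes tested they lay all below in 1.19% and all above in 0.325%, shares at which a list of this size would hold few such genes, so the count of 0 is near the background. BUB3 came nearest, with 7979, 8409.6 and 8519 on the CDK4-lower arrays and 8457 to 9385 elsewhere, and without CDK4/6 siRNA 2 it would be the 1 gene that did not overlap. Of 35 replication genes, 9 were lower on all 3 (MCM10, CDC6, CDT1, GINS3, RFC4, FEN1, CHAF1A, CCNE1 and CDC25A). On those arrays the median log2 deviation from each gene's 12-array mean was −0.011, 0.032 and 0.0017 over the 52 mitotic genes, and −0.248, −0.249 and −0.161 over the replication genes. The replication genes were also low on no siRNA 2 and non-targeting siRNA 1 (−0.195 and −0.188), where the mitotic genes were low too (−0.174 and −0.137). On cyclin D1 siRNA 2 the replication genes were at −0.069 and the mitotic genes at −0.146.

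Along CCND1, 3 of 52 genes (5.77%, against 0.443% of all genes tested) were lower on all 6 CCND1-lower arrays than on the other 6, and 0 were higher. TTK, the MPS1 kinase that starts the spindle checkpoint, read 1237, 1118 and 1045 on the both-higher arrays, 868, 849.6 and 869 on the CDK4-lower arrays, and 782, 835.5 and 771 followed by 835, 765.5 and 842 on the CCND1-lower arrays. CENPA, the histone H3 variant that marks centromeres, read 1079.5, 899 and 987 on the both-higher arrays and 836, 834.5 and 934 on the CDK4-lower arrays. On the CCND1-lower arrays it read 708, 768 and 698 and then 777, 681 and 792. NEK2, a kinase that parts the centrosomes, read 201, 179.7 and 181 on the both-higher arrays, 174.5, 197 and 185 on the CDK4-lower arrays, and 154, 173 and 162 then 169.7, 135 and 164 on the CCND1-lower arrays. The gaps were narrow: the nearest values on either side were 842 and 849.6 for TTK, 792 and 834.5 for CENPA, and 173 and 174.5 for NEK2. A second NEK2 probe did not follow CCND1: it was lowest on CDK4/6 siRNA 2 (51.6), where CCND1 was high, and read 61.1 on cyclin D1 siRNA 3, where it was low. Leaving out an array cannot make parted sets overlap, so the count of 3 can then only stay or rise. It reached 9 at most. The share of all genes with the same array left out is not given here, so the rise cannot be read as a trait of the mitotic genes.

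The widest pattern was neither of these. In 28 of the 52 genes (53.8%) the 3 both-higher arrays held the 3 highest values of the 12, against 4.36% of all genes tested, and in 0 did they hold the 3 lowest. This set of arrays was looked at after the values were seen. Among the further mitosis genes it held for 27 of 64 (42.2%), CDK1, RACGAP1 and WEE1 among them, and among the replication genes for 24 of 35 (68.6%), the MCM2 to MCM7 helicase subunits included. The median log2 deviation of the 52 genes was 0.233, 0.193 and 0.214 on the both-higher arrays, and from −0.174 to 0.032 on the other 9. No siRNA 1 alone held the highest value of 27 of the 52 genes, and cyclin D1 siRNA 1 and CDK4/6 siRNA 1 of 8 each. All 3 arrays carry replicate number 1, as does non-targeting siRNA 1, which was among the lowest (−0.137). They are also the first 3 deposited columns, so column order and target level cannot be told apart here. Whether replicate or order bears on the pattern was not tested. Averaging all probes of a gene gave 26 of the 28. For 9 of the 28 genes 12 dimmer probes were above background on every array, and 3 of these (of CENPM, MELK and SMC2) had the same arrays on top, whereas the other 9, those of CENPE, FOXM1, MAD2L1, NUSAP1, SMC4 and SPC25 among them, did not. Of 8 such probes of the other genes 1 had them on top, that of BIRC5. Total RNA of a culture was measured, so fewer cells in mitosis and less of each transcript per cell cannot be told apart.

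**Figure D2:**
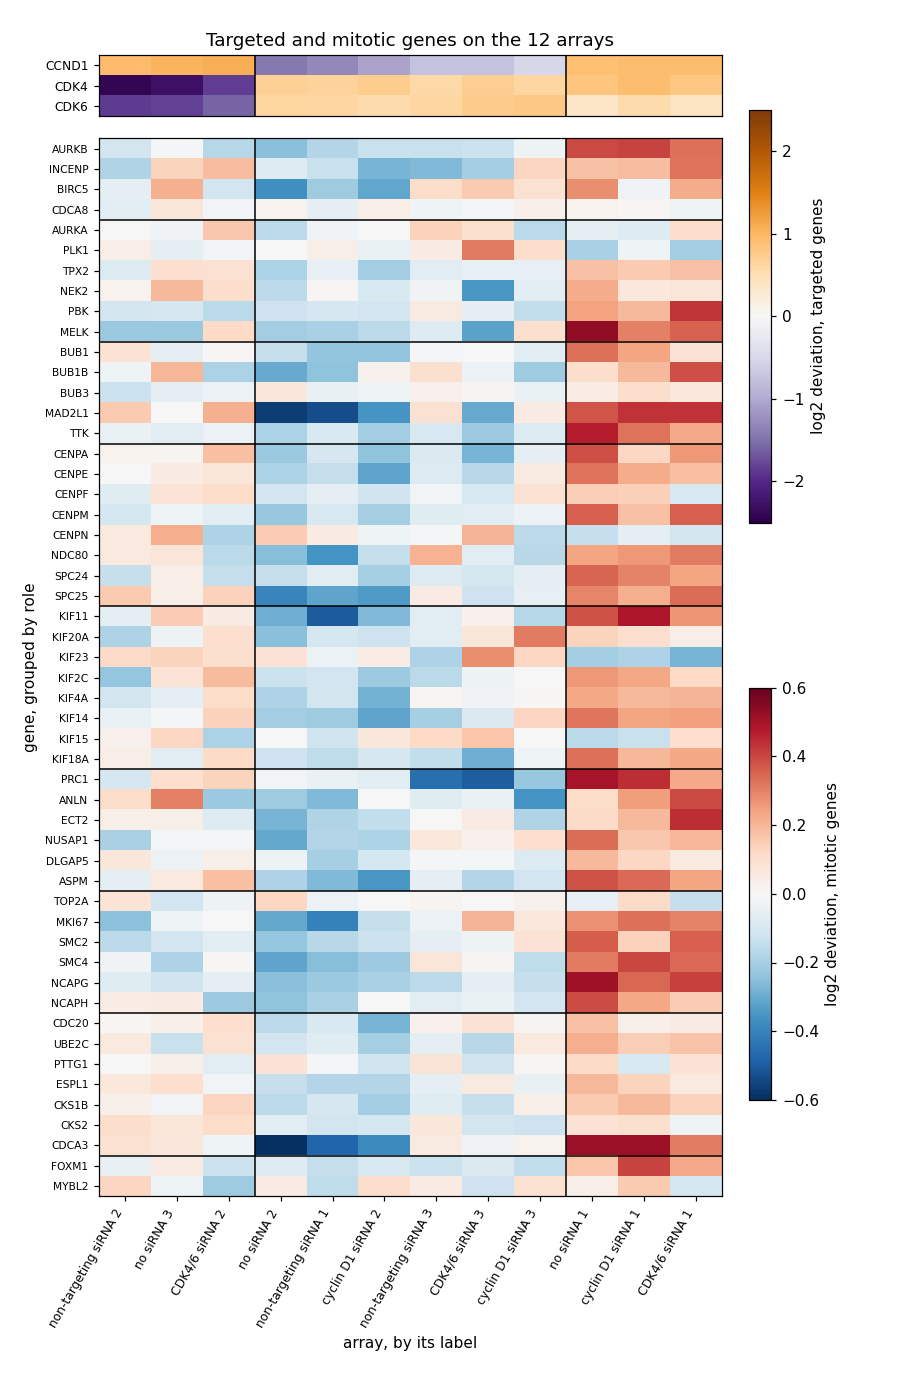
Log2 deviation of each gene (rows) from its mean over the 12 arrays (columns, by label), for CCND1, CDK4 and CDK6 above and the 52 tested mitotic genes below, on separate colour scales. Black lines part roles and the 3 CDK4-lower, 6 CCND1-lower and 3 both-higher arrays. Most rows are red on the 3 right-hand arrays, with KIF23, PLK1 and CENPN blue there.

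Within the CCND1-lower arrays the 3 with least CCND1 stood lowest. On no siRNA 2, non-targeting siRNA 1 and cyclin D1 siRNA 2 the median log2 deviation of the 52 genes was −0.174, −0.137 and −0.146, whereas on non-targeting siRNA 3, CDK4/6 siRNA 3 and cyclin D1 siRNA 3 it was −0.032, −0.045 and −0.035. In 13 of 52 genes (25%) those 3 arrays held the 3 lowest values of the 12, against 1.85% of all genes tested. The 13 were BIRC5, BUB1, MAD2L1, SPC25, KIF11, KIF4A, KIF14, ASPM, SMC4, NCAPG, CDC20, ESPL1 and CDCA3. It held for 9 of 64 further mitosis genes (14.1%) and 2 of 35 replication genes (5.71%). This set, too, was looked at after the values were seen, and the cause of the spread among the CCND1-lower arrays was not tested.

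**Figure D3:**
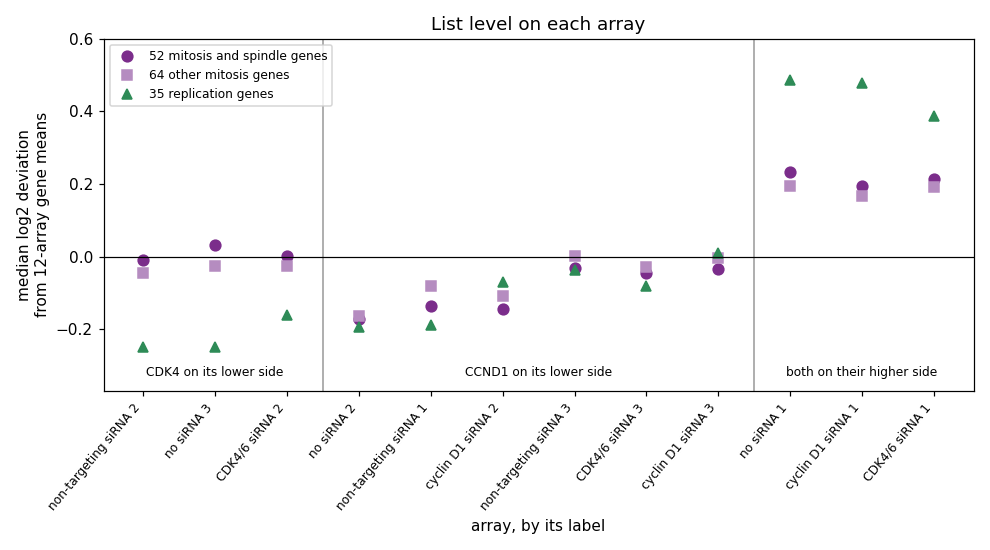
Median log2 deviation from each gene's 12-array mean (y axis) on each array (x axis, by label) over 52 mitosis and spindle genes, 64 further mitosis genes and 35 replication genes. Grey lines part the CDK4-lower, CCND1-lower and both-higher arrays. On the CDK4-lower arrays the mitotic genes lay near 0 and the replication genes between −0.249 and −0.161, and on the both-higher arrays all 3 lists lay above every other array.

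In the chromosomal passenger complex, which corrects faulty attachments, 1 of 4 genes was highest on the both-higher arrays. AURKB, its Aurora B kinase, read 2250.5, 2268 and 2152 there and 1439.6 to 1702 on the other 9 arrays, so the sets were well apart. BIRC5, the survivin subunit, read 2369.5, 1921.5 and 2279.9, 1875, 2265 and 1804 on the CDK4-lower arrays, and 1513.5, 1681.5 and 1573 then 2109, 2178 and 2081.5 on the CCND1-lower arrays. It was thus low on the 3 arrays with least CCND1 and overlapped elsewhere. A dimmer BIRC5 probe did hold its 3 highest values on the both-higher arrays (253 to 268, against 236 at most elsewhere). INCENP, the scaffold of the complex, spanned 209.7 to 319, highest on CDK4/6 siRNA 1.

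Of the mitotic kinases and spindle pole proteins, 3 of 6 tested were highest on the both-higher arrays. MELK, a kinase of proliferating cells, read 3273, 2793 and 2896 there, 1942, 1944 and 2463 on the CDK4-lower arrays, and 1962, 1979.9 and 2030.3 then 2148, 1814 and 2422 on the CCND1-lower arrays. A second MELK probe had the same 3 arrays on top (1527 to 1704). PBK, a mitotic kinase, read 1414, 1366.5 and 1609 against 1068 to 1241.5, and TPX2, which activates Aurora A on the spindle, 913, 900.0 and 912 against 699 to 865. PLK1, which drives mitotic entry and centrosome maturation, ran the other way in part. It read 809, 908 and 801 on the both-higher arrays and 892 to 1148 on the others, with its highest value on CDK4/6 siRNA 3.

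In the spindle checkpoint, which blocks anaphase until all kinetochores are attached, 2 of 5 genes were highest on the both-higher arrays, TTK (above) and MAD2L1. MAD2L1, the MAD2 protein that inhibits CDC20, read 2415, 2507 and 2509.8 there, 2072, 1855 and 2151 on the CDK4-lower arrays, 1254, 1284 and 1452.5 on the 3 arrays with least CCND1 and 1979.9, 1508 and 1921.5 on the other CCND1-lower arrays. The both-higher arrays and those with least CCND1 stood apart at either end, and the rest overlapped between them. The dimmer MAD2L1 probe did not follow: it was widest of all at 3.13-fold, lowest on non-targeting siRNA 1 (142) and highest on non-targeting siRNA 3 (444). BUB1, a kinase of the checkpoint, missed the pattern by 1 array, with 1795, 1681 and 1513 on the both-higher arrays and up to 1517 elsewhere. BUB1B, which encodes BUBR1, spanned 173 to 279, and no siRNA 3 (244) lay among the both-higher values.

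Of the centromere and kinetochore genes, 5 of 8 were highest on the both-higher arrays. NDC80, SPC24 and SPC25 are subunits of the complex that grips microtubules. NDC80 read 926, 944 and 978 there and 613 to 909 elsewhere, and SPC24 1911, 1844.5 and 1766 and 1306 to 1543. SPC25 read 563, 534 and 579.6, 512, 471 and 506 on the CDK4-lower arrays, and 349, 369 and 362.5 then 476, 421 and 444 on the CCND1-lower arrays, again apart at either end. CENPE, a kinesin that moves chromosomes to the plate, read 1097.5, 1019.8 and 991.5 against 702 to 920.3. CENPM, of the centromere's constitutive network, had 2 of its 3 probes in the pattern, the brightest with 1053, 929 and 1052 against 702 to 807. CENPN, which binds CENPA nucleosomes, spanned 548 to 725 and was low on the both-higher arrays (568, 599 and 579), though cyclin D1 siRNA 3 and CDK4/6 siRNA 2 were lower still. CENPF, an outer kinetochore protein, was dim and narrow in range (1.20-fold).

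Kinesins are motors of the spindle, and 4 of 8 were highest on the both-higher arrays. KIF11, the Eg5 motor that pushes spindle poles apart, read 1435, 1546 and 1324 there, 1061, 1225 and 1141 on the CDK4-lower arrays, and 901, 780.4 and 917 then 1052, 1124 and 979 on the CCND1-lower arrays. KIF4A, a chromosome-bound motor, read 489, 477 and 479 against 342 to 449. KIF14, a cytokinesis motor, read 847, 799 and 804 against 544.5 to 746, and KIF18A, which damps chromosome movement, 572, 522 and 535 against 372 to 493. The others did not follow. KIF20A, a motor of the central spindle, was highest on cyclin D1 siRNA 3 (2088), and KIF2C, which removes wrong attachments, overlapped through CDK4/6 siRNA 2 (1691, against 1607 on CDK4/6 siRNA 1). KIF23, a subunit of the centralspindlin complex of cytokinesis, went the other way, with 496, 504 and 471 on the both-higher arrays and 504 to 694.5 elsewhere. Its dimmer probe did not repeat that, being highest on no siRNA 1 (143.5) and lowest on no siRNA 2 (84.9). KIF15, a motor that backs up KIF11, spanned 5546 to 7102 with no set apart.

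Of the spindle-binding and cytokinesis genes tested, 4 of 6 were highest on the both-higher arrays. PRC1, which bundles the microtubules of the central spindle, read 3305, 3191 and 2741 there, 2186.5, 2509.8 and 2572 on the CDK4-lower arrays, 2315, 2284 and 2238 on the 3 arrays with least CCND1 and 1711, 1664 and 2004 on the other CCND1-lower arrays. PRC1 was thus lowest on the CCND1-lower arrays with more CCND1, whereas the list median was lowest on the 3 with least CCND1. ASPM, a spindle pole protein, read 2349.8, 2283 and 2127 on the both-higher arrays and 1417 to 2042.5 elsewhere, lowest on cyclin D1 siRNA 2. ECT2, which activates RHOA at the cleavage site, read 2859.9, 3014 and 3580.4 against 2173 to 2728, and NUSAP1, a microtubule bundler, 4212, 3743 and 3838 against 2704 to 3583. ANLN, the contractile ring protein anillin, spanned 1285 to 2159, and no siRNA 3 (2023) exceeded no siRNA 1 and cyclin D1 siRNA 1. DLGAP5, which stabilises kinetochore fibres, spanned 1684 to 2207.

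Of the chromosome structure genes, 5 of 6 followed the pattern. NCAPG and NCAPH are subunits of condensin I, and SMC2 and SMC4 are the ATPase core of both condensins. NCAPG read 3103, 2764 and 2898 on the both-higher arrays, 2074, 2007 and 2091 on the CDK4-lower arrays, and 1833, 1864 and 1902.5 then 1956, 2102 and 1979.9 on the CCND1-lower arrays. SMC4 read 2476, 2633 and 2531.5 against 1603 to 2102, and SMC2 509.5, 436 and 508 against 337 to 421, with a second SMC2 probe alike (466 to 499 against 302 to 422) but not a still dimmer one (47.2 to 57.2, against up to 65.2). NCAPH (88.0, 78.7 and 74.5 against 56.8 to 69.5) and MKI67, the Ki-67 coat of mitotic chromosomes (up to 125, against 74.9 to 114.5 elsewhere), had the same order at dim levels. TOP2A, near background, was the exception.

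Among the genes of the anaphase switch and the CDK subunits, 3 of 7 were highest on the both-higher arrays. CDCA3, an adaptor for degradation at mitotic entry, had the widest range of the list. It read 1574, 1570.1 and 1359 on the both-higher arrays, 1170.0, 1154.5 and 1081 on the CDK4-lower arrays, 692, 791 and 845 on the 3 arrays with least CCND1 and 1141, 1085 and 1114 on the other CCND1-lower arrays. The CDK4-lower arrays and the latter 3 overlapped. UBE2C, the ubiquitin-conjugating enzyme of the anaphase-promoting complex, read 134, 127 and 129.7 against 100.2 to 123, and CKS1B, a CDK subunit, 4599, 4713 and 4541 against 3562.5 to 4511, the narrowest margin of the 28. CDC20, which activates that complex, was low on the 3 arrays with least CCND1 (9131, 9565 and 8380.0) and between 10229.7 and 11507 on the other 9. ESPL1, the separase that cuts cohesin, was also lowest there (207, 201.5 and 201.5, against 219 to 260.3). Of the transcription factors, FOXM1 read 420.4, 496 and 439 on the both-higher arrays and 339 to 387.5 elsewhere, with cyclin D1 siRNA 1 highest.

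Promoter sequence is shown for genes on both sides of the pattern, because the CHR element is the letter code these genes are best known to share. RefSeq promoters (GRCh38.p14, 250 bases before to 50 after a start) matched 44 of the 53 genes with 49 entries. The CHR letters TTTGAA or TTCGAA, read on both strands, were in 35 of 49 entries (71.4%), against 16.4% of all 35116 promoters of that length. CCAAT, a box often placed near it and bound by NF-Y, was in 35 of 49 (71.4%, against 34.6%), and 27 (55.1%, against 6.38%) held both. Where CCAAT runs straight into TTTGAA the motifs share 1 base. The 26 entries of genes highest on the both-higher arrays held a CHR in 69.2% and the 23 entries of other genes in 73.9%, so the letters were about as common in each. The last 120 bases before the start are printed 5′ to 3′ on the gene's strand, with the CHR letters, the CCAAT letters and their reverse complements in capitals. PRC1 (chr15:90994536-90994655, minus strand), KIF11 (chr10:92593010-92593129, plus) and NCAPG (chr4:17810859-17810978, plus) were highest on the both-higher arrays, and CDC20 (chr1:43358861-43358980, plus) was lowest on the arrays with least CCND1. By their brightest probes, KIF23 (chr15:69414229-69414348, plus) ran low where most genes were high and PLK1 (chr16:23678769-23678888, plus) did so in part.
PRC1: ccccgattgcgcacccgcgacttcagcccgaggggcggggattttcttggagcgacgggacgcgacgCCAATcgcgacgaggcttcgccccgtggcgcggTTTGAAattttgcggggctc
KIF11: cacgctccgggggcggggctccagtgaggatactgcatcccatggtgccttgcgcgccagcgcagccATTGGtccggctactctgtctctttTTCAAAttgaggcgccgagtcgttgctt
NCAPG: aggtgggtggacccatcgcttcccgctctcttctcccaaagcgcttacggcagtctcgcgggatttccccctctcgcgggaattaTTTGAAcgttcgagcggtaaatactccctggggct
CDC20: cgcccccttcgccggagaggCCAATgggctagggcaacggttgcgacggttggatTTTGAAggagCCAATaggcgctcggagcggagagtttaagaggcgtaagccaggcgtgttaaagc
PLK1: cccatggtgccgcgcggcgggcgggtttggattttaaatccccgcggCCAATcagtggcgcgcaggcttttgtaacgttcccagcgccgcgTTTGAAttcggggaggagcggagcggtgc
KIF23: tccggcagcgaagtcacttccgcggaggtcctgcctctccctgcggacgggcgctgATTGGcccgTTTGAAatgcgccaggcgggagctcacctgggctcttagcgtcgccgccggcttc
All 6 stretches hold a CHR match, on the other strand in KIF11, and 5 hold a CCAAT match, with NCAPG lacking one in this window. CDC20 has a pair of CCAAT boxes around its CHR letters. PLK1 and KIF23 carry both motifs like PRC1 and KIF11 do. On the both-higher arrays the PLK1 probe ran low only in part, and the brightest KIF23 probe ran low while its dimmer probe did not. A match is a description of letters and does not show binding.

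Along the labels, 0 of the 52 genes were called in any of 4 comparisons (limma, 1 fit over the 4 labelled groups, two-sided, Benjamini-Hochberg adjustment over 13551 genes, threshold 0.05), where 0% of all genes tested were called. The siRNA targets CCND1, CDK4 and CDK6 were thus not called either. CDCA3 shows the spread within a label. Its intensity was 1574, 692 and 1154.5 on the arrays labelled no siRNA (1140.2 ± 441, SD, n = 3), 791, 1170.0 and 1141 with non-targeting siRNA (1034 ± 211), 1570.1, 845 and 1114 with cyclin D1 siRNA (1176 ± 367) and 1359, 1081 and 1085 with CDK4/6 siRNA (1175 ± 159.5), in order of replicate number. Each label overlapped the others. The label non-targeting siRNA holds 0 both-higher arrays, and each other label holds 1.

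**Figure D4:**
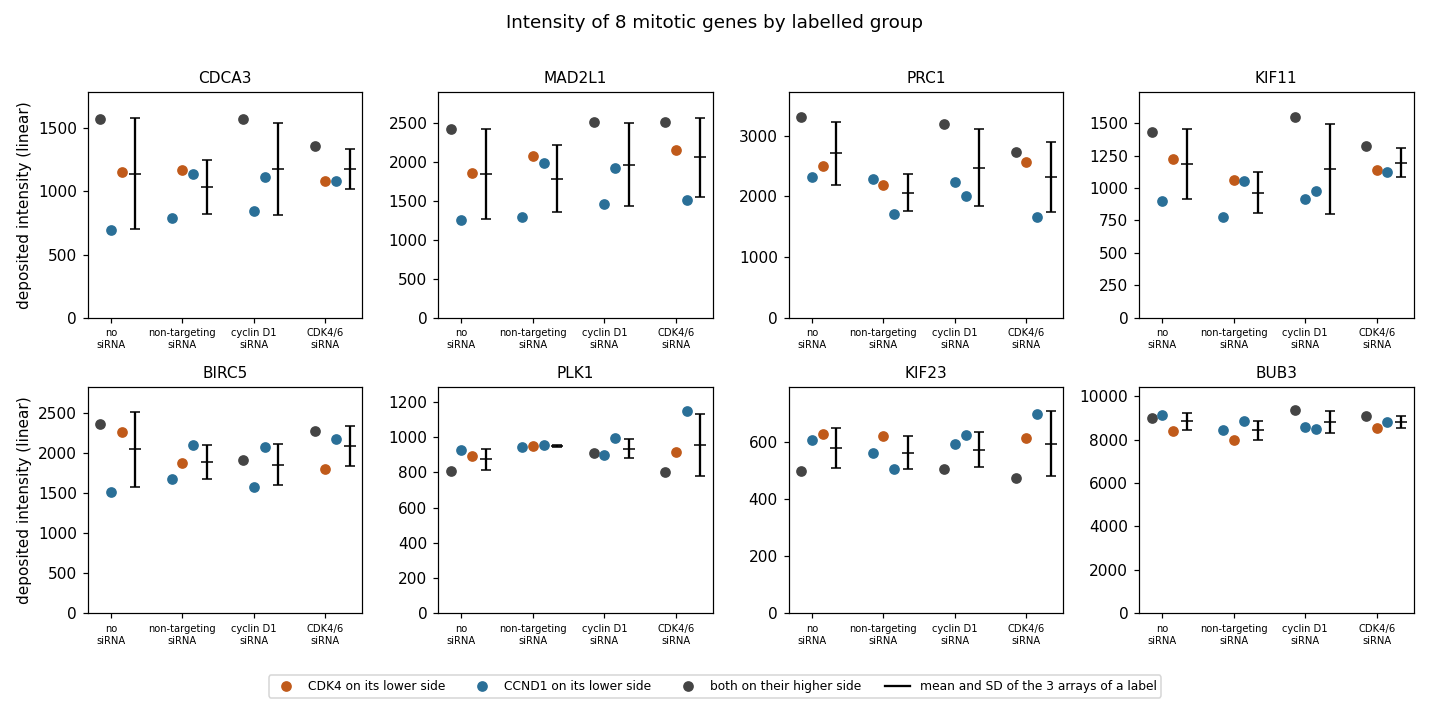
Deposited linear intensity (y axis, from 0) of 8 mitotic genes on the 3 arrays of each labelled group (x axis), coloured by whether CDK4, CCND1 or neither was on its lower side, with the mean and SD of the 3 arrays in black. In CDCA3, MAD2L1, PRC1 and KIF11 the grey both-higher arrays stand on top within their labels (CDCA3 at 1359 to 1574). In KIF23, by its brightest probe, they lie low, in PLK1 they do so in part, and BUB3 is flat.

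The arrays labelled cyclin D1 siRNA against those labelled non-targeting siRNA gave a median log2 fold change of 0.058 over the 52 genes and 0.0032 over all genes. The smallest p-values were those of KIF20A, with 1803, 1545 and 2088 on the arrays labelled cyclin D1 siRNA and 1563, 1479 and 1607 with non-targeting siRNA (log2 fold change 0.21, SE 0.11, limma adjusted p = 0.9997), and MKI67 (0.26, SE 0.13, the same adjusted p). At an unadjusted p under 0.05, 0 of 52 genes and 2.61% of all genes passed. Without cyclin D1 siRNA 1, a both-higher array, the median turned to −0.038.

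For CDK4/6 siRNA against non-targeting siRNA the median was 0.104, against 0.0042 over all genes, and 2 genes passed unadjusted, against 1.47% of all genes. MKI67 read 122, 99.1 and 114.5 on the arrays labelled CDK4/6 siRNA and 74.9, 83.8 and 96.8 on those labelled non-targeting siRNA, without overlap (log2 fold change 0.33, SE 0.13). KIF2C read 1607, 1691 and 1449 and 1369, 1259 and 1324.5, also without overlap (0.26, SE 0.12). Both had a limma adjusted p of 0.9995. Without CDK4/6 siRNA 1, a both-higher array, the median was 0.042. Then 0 of the 52 genes passed unadjusted, against 298 of all 13451 genes tested. Without non-targeting siRNA 1 the median was 0.064.

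Cyclin D1 siRNA against CDK4/6 siRNA gave a median of −0.048 (−0.0018 over all genes), which turned to 0.022 without CDK4/6 siRNA 1 and to 0.025 without cyclin D1 siRNA 2. Here 2 genes passed unadjusted, against 1.15% of all genes. MYBL2 read 57.8, 55.9 and 55.3 with cyclin D1 siRNA and 48.3, 44.8 and 47.6 with CDK4/6 siRNA (log2 fold change 0.19, SE 0.059), and AURKA 40.2, 42.4 and 37.9 and 45.7, 47.4 and 45.3 (−0.14, SE 0.054). Both sit at or close to the background level of 44.4, and both had a limma adjusted p of 0.99996. In the test for any difference among the 4 labels, MYBL2 was the 1 gene of 52 that passed unadjusted (limma), against 0.723% of all genes.

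The arrays labelled no siRNA against non-targeting siRNA gave a median of 0.087 (0.0037 over all genes), and 0 of 52 genes passed unadjusted, against 1.48% of all genes. KIF2C (1773, 1353 and 1567 with no siRNA, log2 fold change 0.24, SE 0.12) and INCENP (287.5, 241 and 279 and 232, 224 and 212, 0.25, SE 0.13) had the smallest p-values, both with a limma adjusted p of 0.9999. Without no siRNA 1 the median was −0.0088. The 3 comparisons with non-targeting siRNA share its arrays, and cyclin D1 siRNA against CDK4/6 siRNA shares arrays with the first 2, so the medians are not independent of each other.

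**Figure D5:**
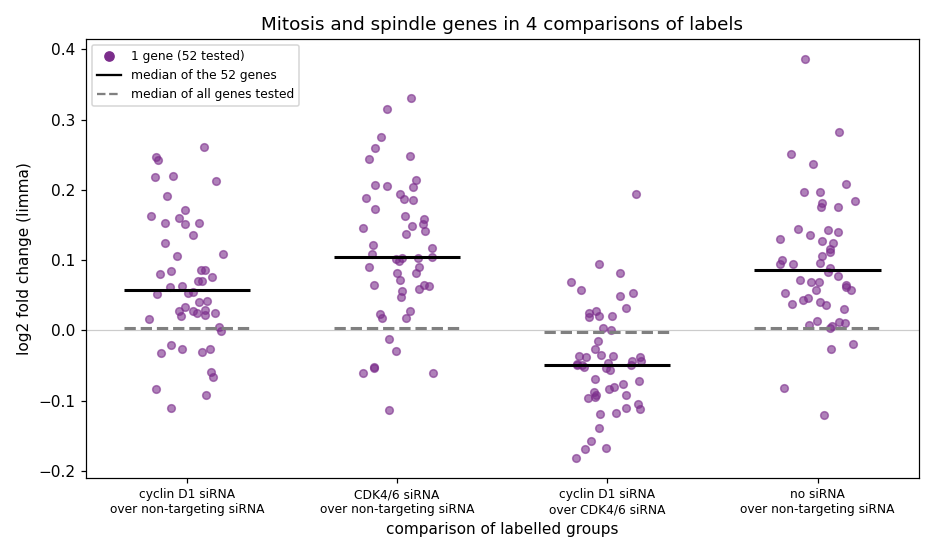
Log2 fold change from limma (y axis) of each of the 52 tested mitotic genes (points) in 4 comparisons of labelled groups (x axis), with the median of the 52 genes (black bar) and of all genes tested (dashed bar). The medians of the mitotic genes lie at 0.058, 0.104, −0.048 and 0.087, those of all genes near 0, and no gene was called.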

How the data were processed

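RNA of MDA-MB-231 cells was read on 12 Illumina BeadChip arrays. The authors deposited 1 linear intensity for each of 48803 probes per array. Sorted values agreed between arrays within 0.5% at 99.97% of ranks, as after quantile normalization. The background had not been subtracted. Software and settings were not given in the sources used here. A further 24 columns of a second table that match no label were not used.

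Normexp (offset 50) and quantile normalization were applied, and values were taken to log2 and fitted with limma 3.58.1 (lmFit and eBayes) in R 4.3.3. Figures used matplotlib 3.10.9. Background was the mode of all intensities (39.5), with an SD of 2.95 from the values under the mode. Probes above 44.4, where a one-sided p against background reaches 0.05, were tested if this held on 3 or more arrays, which kept 27021 probes. Of all probes 27578 had 1 symbol in the platform annotation, 13 several and 21212 none there. A gene was read from its tested probe with the highest mean, giving 13551 genes, and the ranges and per-array values in the text are of the deposited intensities. No 2 arrays shared more than 0.692% of values. Arrays were parted at the widest log2 gap of the brightest CDK4 or CCND1 probe, and a gene was counted when the sets of arrays did not overlap. The fit was tested on simulated data.

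The members and lists were chosen with earlier results of these data known. Genes were named by a rule: the siRNA targets, the 10 widest and 5 narrowest ranges, the 2 smallest p-values of each comparison, genes apart along CDK4 or CCND1, the 3 brightest of each role, and genes not above background. The others named, and both sets of 3 arrays, were chosen after values were seen. Promoters came from RefSeq (GRCh38.p14). Alternatives were the background correction, quantile step, filter, replicate block, array weights, probes of a gene, arrays in the fit, control group, the methods' t-test and leaving out each array. A chip block was not run, as no source used here places arrays on chips.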

Additional observations from a re-analysis of the deposited data

How the results depend on the processing

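The counts of 0 called genes in the 4 comparisons and in the test over all labels stayed at 0 under every alternative run, for all genes as for the 52. The siRNA targets themselves were thus never called. Every alternative kept labels that the target levels contradict, so the unchanged 0 does not show that the siRNAs left these genes unchanged. The 18 same-numbered pairs of arrays with different labels correlated at −0.225 to 0.475, and 9 exceeded 0.1. Their median was 0.111, against −0.0453 for pairs with different numbers. Deviations were taken within labels that the target levels contradict, so these values cannot settle whether same-numbered arrays were paired. With the replicate block 0 genes were called. At an unadjusted p under 0.05 limma then passed 2, 3, 2 and 2 of the 52 in the order of comparisons of the report. Of all 13551 genes it passed 454, 268, 175 and 282. The methods' t-test passed 1, 3, 3 and 1 of the 52 unadjusted, against 325, 265, 202 and 269 of all genes. After Benjamini-Hochberg adjustment it passed 0. Over the alternatives the median log2 fold change of the 52 genes ran from −0.038 to 0.126 for cyclin D1 siRNA, 0.023 to 0.174 for CDK4/6 siRNA, −0.133 to 0.025 between both targeting siRNAs and −0.0088 to 0.192 for no siRNA. Only the median for CDK4/6 siRNA kept its sign throughout. Its 0.023 came with the no siRNA arrays as the control, and against non-targeting siRNA its lowest was 0.042. The label non-targeting siRNA is the one without a both-higher array. Leaving out 1 array gave 28 to 33 genes highest on the both-higher arrays, against 4.59% to 6.58% of all genes. It gave 0 to 1 genes apart along CDK4 and 3 to 9 along CCND1, for which the share of all genes is not given here. Such counts can only stay or rise when an array is left out, so they say nothing about stability. Averaging all probes of a gene lowered the 28 to 26. Dim probes (CDCA8, MYBL2, AURKA, TOP2A) sit near background, where a difference between arrays is understated.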
